A study of Saccharomyces cerevisiae with 18 samples.

Results

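Amino acid biosynthesis genes and GCN4 were followed over 18 yeast arrays. The 50 genes comprised GCN4, which encodes the transcriptional activator of amino acid biosynthesis, and 49 enzyme genes of 10 pathways. They were taken from a list of 51 names, each read by its single probe set, out of 5449 genes measured. BAT1 was listed too but lies on chromosome VIII and was left out, as all genes of that chromosome were for the members. By pathway, 4 genes served arginine, 6 histidine, 4 homoserine and threonine, 9 isoleucine, valine and leucine, 7 lysine, 6 the shikimate trunk and its first aromatic branches, 4 tryptophan, 4 serine, 2 asparagine and 3 proline.

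The arrays compared yeast strains in which Snf1, the yeast AMP-activated protein kinase (AMPK), was altered. Every strain, the comparison strain included, lacked the chromosomal SNF1 gene by its label and held a plasmid. Alpha1 carried HA-Alpha1, a fusion of the catalytic domain of the AMPK Alpha1 subunit with the regulatory domain of Snf1. T210A carried HA-T210A, a Snf1 whose activation site Thr210 was replaced by Ala, and Snf1 carried HA-Snf1, the comparison plasmid. Cells were grown with air in 1-litre bioreactors at 30 °C and pH 5.0 from 40 g/L glucose. They were sampled at a residual glucose of 5 g/L (low) or 15 to 20 g/L (high), per the labels at steady state. Each of the 6 groups of strain and glucose level held 3 arrays of biotin-labelled total RNA. The labels name them biological replicates, and nothing says whether they came from separate cultures, so the p-values measure the spread between these arrays. The promoter and the copy number of the plasmids are not given in the sources used here.

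In yeast, starvation for an amino acid leads the kinase Gcn2 to phosphorylate a translation initiation factor, which raises translation of the GCN4 message. The Gcn4 protein then activates genes of many amino acid pathways at once, a response called general amino acid control. Because GCN4 is regulated largely at translation, its message level is only a partial guide to its protein, which was not measured here. Several pathways also have their own regulators, such as Leu3 and its ligand alpha-isopropylmalate for leucine genes, and Lys14 with alpha-aminoadipate semialdehyde for lysine genes.

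Values are log2 signals of probe sets, and differences are log2 ± SE of a linear model fitted over all arrays with n = 3 arrays per group. Calls needed an adjusted p under 0.05 over all 5449 genes (moderated test of limma), and rose, fell, higher and lower are used of called genes. A signal belongs to its own probe set, so levels were not compared between genes. The group means of the 50 genes lay between 5.80 and 12.56, and 0 of the 50 lay under 3.25, 1 log2 unit over the mean of the arrays' lowest signals. Replicate arrays correlated at 0.992 to 0.998 over all genes, except in Alpha1 at low glucose (0.978 to 0.984), where the median SD of the 50 genes was 0.337 against 0.092 to 0.133 in the other groups. There, replicate 1 was the highest of the 3 arrays for 35 of the 50 genes and replicate 2 the lowest for 31. The SE pools the variance over groups and so understates the spread of these genes in that group; what part this spread has in the Alpha1 results was not tested. The SNF1 probe set gave 12.69 to 13.17 and 12.30 to 12.46 in Alpha1 at low and high glucose. It gave 9.16 to 9.52 and 6.93 to 7.25 in T210A, and 8.44 to 8.74 and 7.06 to 7.31 in Snf1. It may read plasmid transcripts, so it does not test the deletion.

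**Figure D1:**
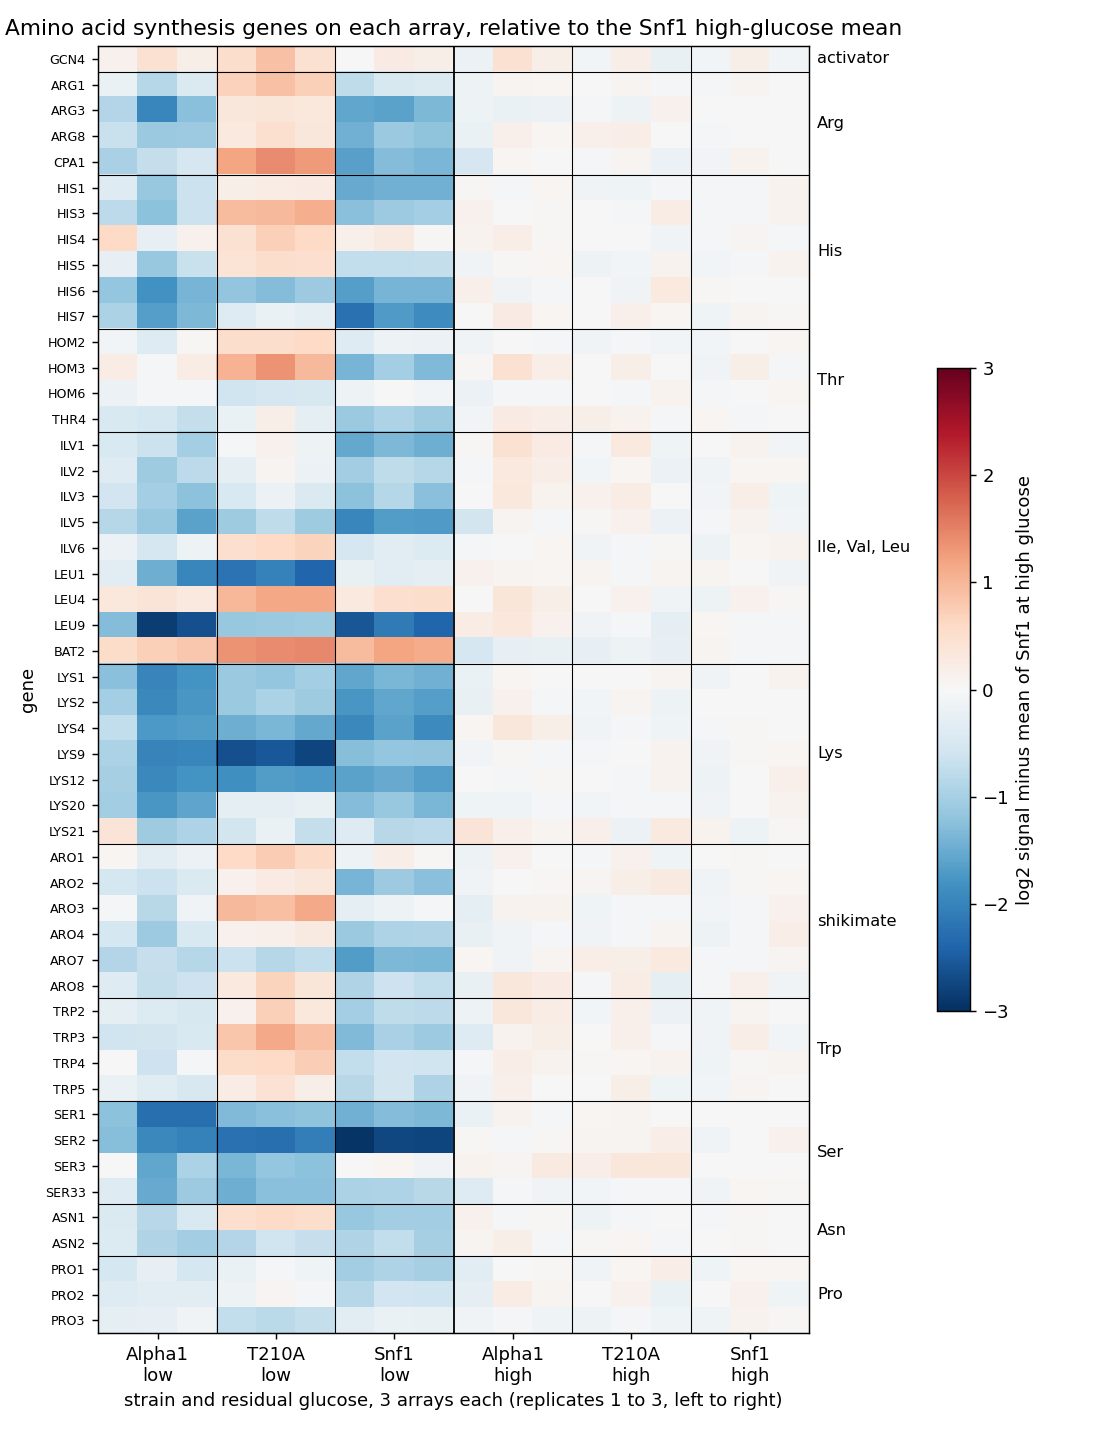
Log2 signal of GCN4 and the 49 enzyme genes on each of the 18 arrays, minus the mean of the 3 Snf1 arrays at high glucose (colour scale, log2), with rows grouped by pathway and columns by strain and residual glucose. The high-glucose columns are pale, the low-glucose columns of Alpha1 and Snf1 are mostly blue, and those of T210A hold red rows (CPA1, HIS3, HOM3) and dark blue rows (LEU1, LYS9, SER2).

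GCN4 (YEL009C, chromosome V) was higher in T210A than in Snf1 at low glucose and rose with low glucose in T210A. At low glucose its signal was 11.40, 11.72 and 11.43 in Alpha1, 11.78, 12.13 and 11.72 in T210A and 11.28, 11.50 and 11.43 in Snf1. At high glucose it was 11.07, 11.72 and 11.44 in Alpha1, 11.18, 11.46 and 11.04 in T210A and 11.19, 11.43 and 11.17 in Snf1. The T210A arrays at low glucose lay above all Snf1 arrays at low glucose and above all T210A arrays at high glucose, and the lowest of them equalled the highest Alpha1 array at low glucose to 2 decimals. The difference between T210A and Snf1 at low glucose was 0.48 ± 0.17, which is 1.39-fold (adjusted p = 0.0248). This call was lost without T210A replicate 2 (0.35, adjusted p = 0.114) and without Snf1 replicate 1 (0.42, adjusted p = 0.0828). Low against high glucose gave 0.65 ± 0.17, adjusted p = 0.00296 in T210A. The same difference was 0.10 ± 0.17, adjusted p = 0.617 in Alpha1 and 0.14 ± 0.17, adjusted p = 0.479 in Snf1, and neither was called. The GCN4 response of T210A minus that of Snf1 was 0.51 ± 0.23, adjusted p = 0.101, and was not called. It was called with the replicate number as a block (0.51, adjusted p = 0.00574). Weighting the arrays gave a call too (0.41, adjusted p = 0.0247), so the call depends on the fit. Alpha1 against T210A at low glucose gave -0.36 ± 0.17, adjusted p = 0.0982, and adjusted p = 0.00547 with the replicate number as a block. These GCN4 changes were smaller than those of many enzyme genes described next. In each of the 6 groups, replicate 2 had the highest GCN4 signal.

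At high glucose, 0 of the 50 genes was called in any pair of strains. By limma, genes with an unadjusted p under 0.05 numbered 1 in Alpha1 against Snf1, 2 in T210A against Snf1 and 2 in Alpha1 against T210A. The share of all genes at this unadjusted threshold is not given here, so these numbers are not read as a result. The shares called over all genes include the 261 genes of chromosome VIII, which the 50 leave out. The median difference of those 261 was 0.74 in T210A against Snf1 and -0.74 in Alpha1 against T210A. What part they have in the shares is not given here. Over all genes, 0.918% were called at adjusted p in Alpha1 against Snf1, 4.18% in T210A against Snf1 and 6.31% in Alpha1 against T210A. The median difference of the 50 genes was 0.006, 0.006 and 0.011 in the same order, and all 50 lay between -0.32 and 0.24, between -0.21 and 0.29, and between -0.22 and 0.36. BAT2, the cytosolic branched-chain aminotransferase, was the 1 gene of Alpha1 against Snf1: its signal was 7.40, 7.65 and 7.69 in Alpha1 and 8.00, 7.84 and 7.88 in Snf1. The Alpha1 arrays lay below all Snf1 arrays, but the difference of -0.32 ± 0.08 had an adjusted p of 0.119.

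With low glucose most of these genes fell in Alpha1 and Snf1, and in T210A they divided into a group that rose and a group that fell. In Alpha1, 1 gene rose and 39 fell, against 34.3% higher and 29.2% lower of all genes. In T210A, 20 rose and 18 fell, against 37.7% higher and 32.8% lower. In Snf1, 2 rose and 40 fell, against 34.7% higher and 32.7% lower. The median difference between low and high glucose was -0.71 in Alpha1, -0.04 in T210A and -1.01 in Snf1, and over all genes it was 0.03, 0.04 and 0.00. The signal is relative to the other transcripts on the array, and in a bulk culture fewer cells that hold a message and less of it per cell cannot be told apart. Sorted by the calls in the 3 strains, 14 genes fell in all strains. These were ARO7, ASN2, HIS6, ILV3, ILV5, LEU9, LYS1, LYS2, LYS4, LYS9, LYS12, SER1, SER2 and SER33, so lysine and serine genes made up 8 of them. Another 11 fell in Alpha1 and Snf1 and rose in T210A, namely ARG1, CPA1, HIS1, HIS3, HIS5, ILV6, ARO8, TRP2, TRP3, TRP5 and ASN1. A further 11 fell in Alpha1 and Snf1 and were not called in T210A, namely ARG3, ARG8, HIS7, THR4, ILV1, ILV2, LYS20, ARO2, ARO4, PRO1 and PRO2. GCN4, HIS4, ARO1 and ARO3 were called in T210A, where they rose, and in neither other strain. HOM2, HOM3 and TRP4 rose in T210A, fell in Snf1 and were not called in Alpha1. BAT2 rose in all 3 strains, and LEU4 rose in T210A and Snf1. LEU1 and SER3 fell in Alpha1 and T210A and were not called in Snf1, while HOM6 fell in T210A, PRO3 in T210A and Snf1, and LYS21 in Alpha1. Some of these Alpha1 calls changed when 1 low-glucose array was left out. PRO1 was -0.33 with all arrays, -0.28, adjusted p = 0.0611 without replicate 1 and -0.28, adjusted p = 0.0684 without replicate 3. PRO2 was -0.35 with all arrays, -0.34, adjusted p = 0.0596 without replicate 1 and -0.36, adjusted p = 0.0528 without replicate 3. ILV6 was -0.29 with all arrays and -0.17, adjusted p = 0.0645 without replicate 2. ARO3 (-0.44, adjusted p = 0.0423) and TRP4 (-0.41, adjusted p = 0.0179) were called lower without replicate 1, and TRP4 without replicate 3 too (-0.38, adjusted p = 0.0364).

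**Figure D2:**
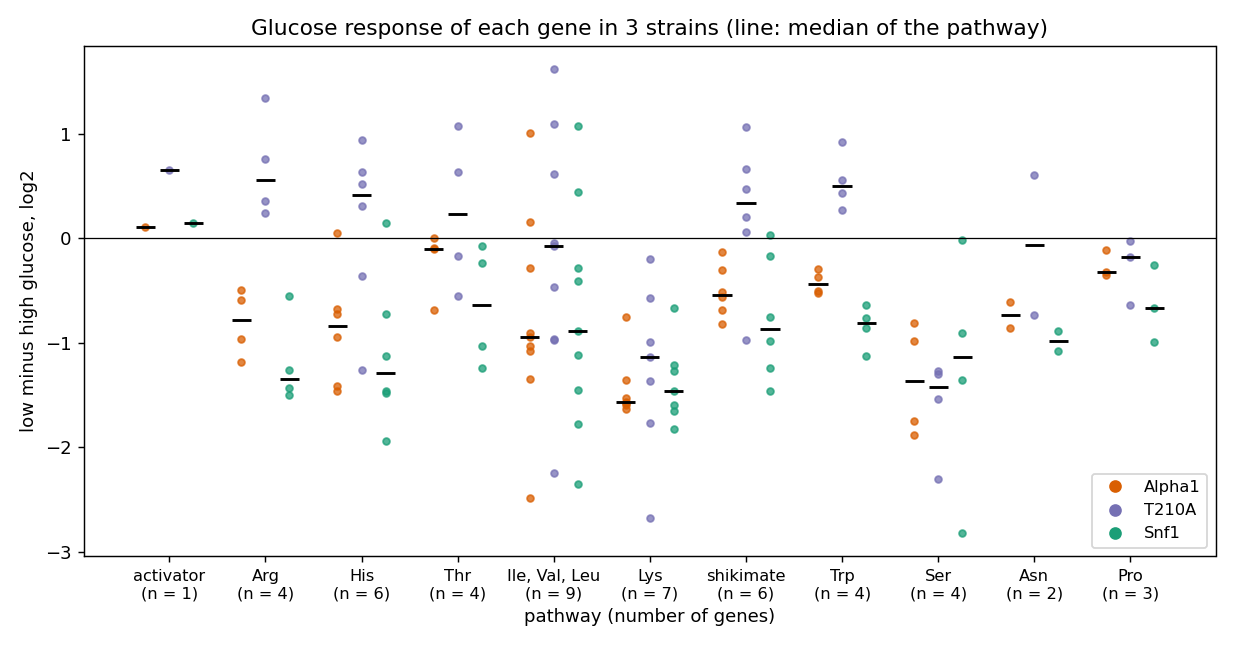
Difference between low and high glucose (log2) of each gene, by pathway and strain, with 1 point per gene and a line at the median of the pathway. The T210A medians lie above those of Snf1 in every pathway but serine (arginine 0.56 in T210A, against -0.78 in Alpha1 and -1.34 in Snf1). The 3 strains lie closest in lysine (-1.57, -1.13 and -1.46 in Alpha1, T210A and Snf1) and serine genes.

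The strains differed at low glucose, with the most calls in T210A against Snf1. In T210A against Snf1, 38 of the 50 genes were higher and 5 lower, against 29.7% higher and 26.5% lower of all genes. The 3 T210A arrays lay clear of the 3 Snf1 arrays in all 43, but these genes were called on the same arrays. Among the members not called, the T210A arrays lay clear above in 2 and clear below in 2. The share of all genes with such a gap is not given here. In Alpha1 against Snf1, 16 were higher and 3 lower, against 17.0% higher and 12.9% lower of all genes. In Alpha1 against T210A, 5 were higher and 34 lower, against 20.8% in each direction over all genes. These shares include the 261 genes of chromosome VIII, which the 50 leave out. The median difference of those 261 was 0.57 in T210A against Snf1 and -0.605 in Alpha1 against T210A. What part this shift has in the shares and in the T210A differences of the 50 was not tested. For the 50 genes the median difference was 0.80 for T210A against Snf1, 0.14 for Alpha1 against Snf1 and -0.66 for Alpha1 against T210A. The medians over all genes were 0.00, 0.01 and 0.00. Both comparisons with Snf1 use the same Snf1 arrays, and both with T210A use the same T210A arrays. The Alpha1 counts varied with the array left out. Without Alpha1 replicate 1 they were 13 higher and 10 lower against Snf1, without replicate 2 they were 20 and 1, and without replicate 3 they were 16 and 2. Genes called lower in Alpha1 against Snf1 without replicate 1, and not with all arrays, were LEU9, LYS1, LYS9, LYS12, LYS20, SER1 and SER33, of lysine, leucine and serine synthesis. A fit on the arrays of these 2 groups called 9 genes higher and 0 lower in Alpha1 against Snf1.

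**Figure D3:**
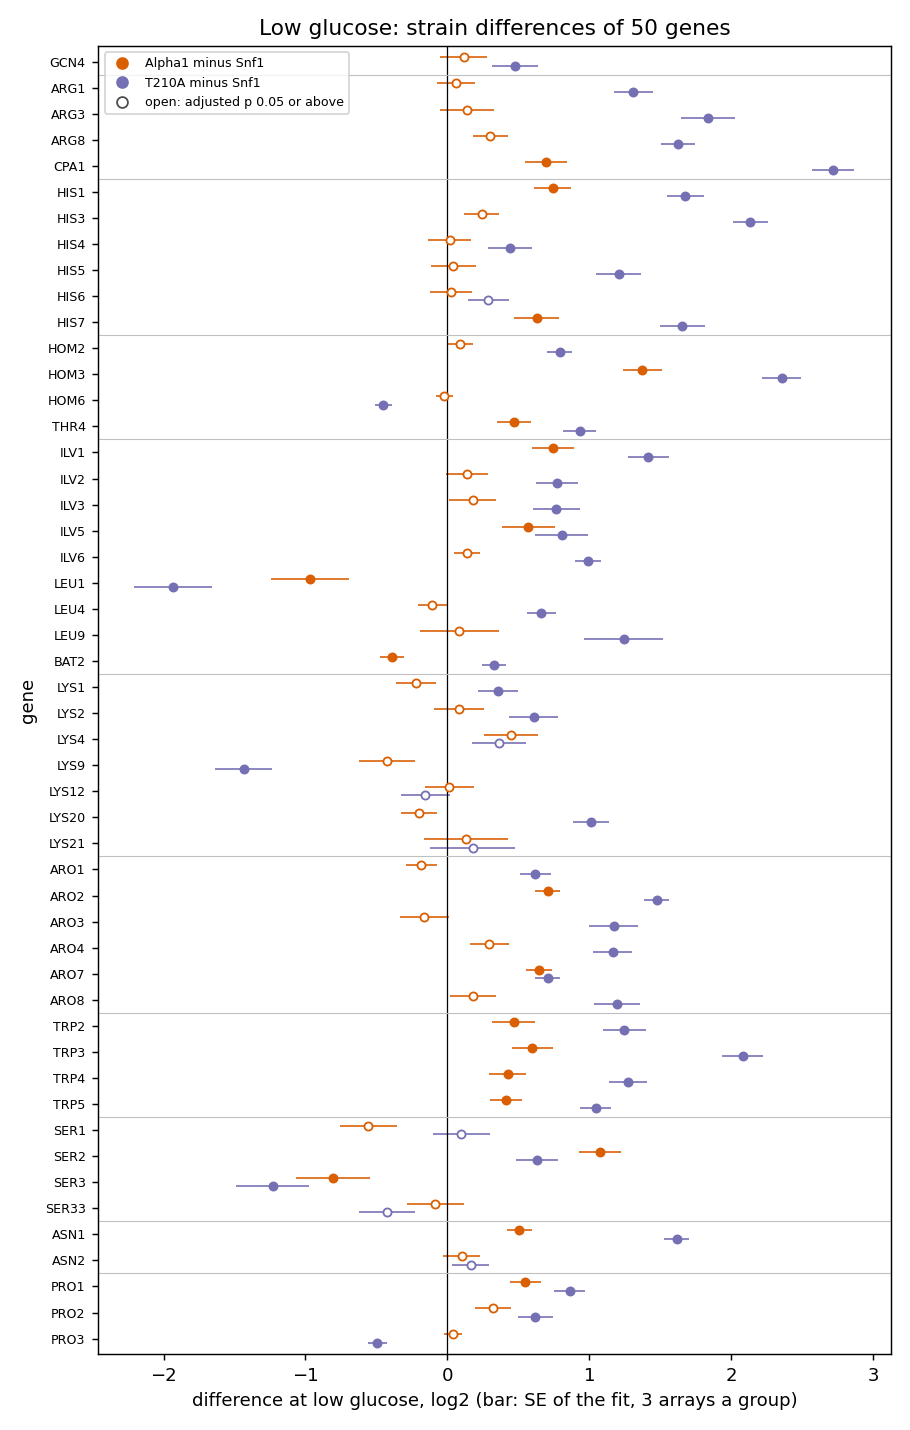
Difference of Alpha1 and of T210A from Snf1 at low glucose (log2, points) with the SE of the fit (bars) for each of the 50 genes, from 3 arrays per group. Filled points are called and open points are not. T210A points extend to 2.72 (CPA1) and -1.93 (LEU1), and the Alpha1 points lie between -0.97 (LEU1) and 1.37 (HOM3).

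Arginine genes were all called in both low-glucose comparisons with T210A, which use the same 3 T210A arrays. All 4 were higher in T210A than in Snf1 at low glucose, 1 was higher in Alpha1, and all 4 were lower in Alpha1 than in T210A. CPA1 (YOR303W), the small subunit of the carbamoyl phosphate synthetase of arginine synthesis, had the largest difference between T210A and Snf1 of the 50 genes. Its low-glucose signal was 9.23, 9.47 and 9.68 in Alpha1, 11.37, 11.60 and 11.48 in T210A and 8.57, 8.89 and 8.82 in Snf1. Its high-glucose signal was 9.70, 10.25 and 10.21 in Alpha1, 10.13, 10.27 and 10.01 in T210A and 10.10, 10.29 and 10.18 in Snf1. The 3 strains did not overlap at low glucose, where T210A was highest and Snf1 lowest, and they overlapped at high glucose. T210A exceeded Snf1 by 2.72 ± 0.15, or 6.59-fold (adjusted p = 6.8e-09), and Alpha1 exceeded Snf1 by 0.70 ± 0.15, or 1.62-fold (adjusted p = 0.00309). With low glucose CPA1 rose by 1.34 ± 0.15 in T210A, and its differences were -0.59 ± 0.15 in Alpha1 and -1.43 ± 0.15 in Snf1, all called. ARG3, the ornithine carbamoyltransferase, gave 9.90, 8.81 and 9.52 in Alpha1, 11.12, 11.12 and 11.08 in T210A and 9.21, 9.17 and 9.42 in Snf1 at low glucose. Its T210A arrays were nearly equal and lay above the rest, while Alpha1 replicate 2 lay below all Snf1 arrays. ARG3 was 3.57-fold higher in T210A than in Snf1 (1.84 ± 0.19, adjusted p = 2.21e-06) and 3.24-fold lower in Alpha1 than in T210A (-1.70 ± 0.19, adjusted p = 1.09e-05). The acetylornithine aminotransferase ARG8 was 3.09-fold higher in T210A than in Snf1 (adjusted p = 1.1e-07), and the argininosuccinate synthetase ARG1 2.48-fold (adjusted p = 2.62e-06). With low glucose ARG1 rose in T210A (0.75 ± 0.14), and the differences of ARG3 (0.36 ± 0.19) and ARG8 (0.24 ± 0.12) were not called in T210A.

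Histidine genes were higher in T210A than in Snf1 at low glucose in 5 of 6 cases and in Alpha1 in 2 of 6. HIS3 (YOR202W) encodes the imidazoleglycerol-phosphate dehydratase, and its gene is also a common selection marker of laboratory strains and plasmids. The labels do not name the markers of these strains, so a contribution of a marker copy to its signal was not tested. HIS3 gave 9.62, 9.18 and 9.76 in Alpha1, 11.36, 11.37 and 11.50 in T210A and 9.14, 9.31 and 9.38 in Snf1 at low glucose. At high glucose it gave 10.54, 10.41 and 10.44 in Alpha1, 10.41, 10.38 and 10.63 in T210A and 10.34, 10.37 and 10.51 in Snf1, where the strains overlapped and no pair was called, with differences of 0.06 ± 0.12 in Alpha1 against Snf1 and 0.07 ± 0.12 in T210A against Snf1. At low glucose its T210A arrays lay above all others, and the Alpha1 and Snf1 arrays overlapped. The T210A excess over Snf1 was 2.14 ± 0.12, 4.39-fold (adjusted p = 1.02e-08), and the Alpha1 difference from Snf1 was 0.24 ± 0.12 (adjusted p = 0.159). Leaving out Alpha1 replicate 2 made the HIS3 difference between Alpha1 and Snf1 a call (0.41, adjusted p = 0.00546). Without HIS3 the T210A counts against Snf1 were 37 higher and 5 lower of 49. Of the other possible markers, URA3 in Alpha1 exceeded Snf1 at low (1.74 ± 0.07) and at high glucose (1.57 ± 0.07). In T210A the URA3 arrays lay above those of Snf1 at low glucose (10.91, 10.91 and 11.04 against 10.09, 10.08 and 9.99). They lay below them at high glucose (10.45, 10.36 and 10.59 against 10.75, 10.79 and 10.89). LEU2 was lower in T210A than in Snf1 at low glucose (-0.76 ± 0.10).

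HIS1, the ATP phosphoribosyltransferase that opens the histidine pathway, gave 11.43, 10.67 and 11.17 in Alpha1, 11.99, 12.03 and 12.06 in T210A and 10.31, 10.38 and 10.37 in Snf1 at low glucose. The strains did not overlap. HIS1 was 3.2-fold higher in T210A than in Snf1 (1.68 ± 0.13, adjusted p = 1.81e-07) and 1.67-fold higher in Alpha1 than in Snf1 (0.74 ± 0.13, adjusted p = 0.000784). The Alpha1 call was lost when the fit held just these 2 groups (adjusted p = 0.0871). HIS7, the imidazole glycerol phosphate synthase, gave 6.75, 7.29 and 7.10 in Snf1 at low glucose and 8.86, 9.07 and 9.03 in Snf1 at high glucose. This fall of 3.84-fold (-1.94 ± 0.16, adjusted p = 9.27e-08) was the largest of the histidine genes in Snf1. In T210A the same difference was -0.36 ± 0.16, adjusted p = 0.0553, and T210A exceeded Snf1 by 1.66 ± 0.16 at low glucose. The histidinol-phosphate aminotransferase HIS5 was 2.31-fold higher in T210A than in Snf1 (adjusted p = 2.2e-05). HIS4, a protein with several activities of the pathway, was higher by 0.44 ± 0.15 (adjusted p = 0.0243) and had the smallest range of group means among these 6 genes. HIS6, the isomerase of the pathway, fell in all strains, by 2.75-fold in Alpha1, 2.39-fold in T210A and 2.79-fold in Snf1, and no pair of strains was called at low glucose. T210A minus Snf1 was 0.29 ± 0.14, adjusted p = 0.107 for HIS6.

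HOM3 (YER052C), the aspartate kinase that starts the route to homoserine, threonine and methionine, had the largest excess of Alpha1 over Snf1 among the 50 genes. At low glucose it gave 10.80, 10.56 and 10.80 in Alpha1, 11.61, 11.94 and 11.55 in T210A and 9.20, 9.57 and 9.26 in Snf1. At high glucose it gave 10.61, 11.04 and 10.79 in Alpha1, 10.56, 10.75 and 10.57 in T210A and 10.48, 10.75 and 10.52 in Snf1. The 3 strains did not overlap at low glucose and overlapped at high glucose, and the low-glucose arrays of Alpha1 lay within the range of its own high-glucose arrays or just below it. HOM3 was 5.12-fold higher in T210A than in Snf1 (2.36 ± 0.14, adjusted p = 1.24e-08) and 2.59-fold higher in Alpha1 than in Snf1 (1.37 ± 0.14, adjusted p = 7.26e-06). With low glucose it rose by 1.07 ± 0.14 in T210A, fell by 1.24 ± 0.14 in Snf1 and was not called in Alpha1 (-0.09 ± 0.14, adjusted p = 0.585). The aspartate-semialdehyde dehydrogenase HOM2 followed with 0.79 ± 0.09 in T210A against Snf1, and threonine synthase THR4 with 0.93 ± 0.12. THR4 was also higher in Alpha1 than in Snf1 (0.47 ± 0.12, adjusted p = 0.00852), whereas HOM2 was not called (0.09 ± 0.09, adjusted p = 0.486). HOM6, the homoserine dehydrogenase between them, went the other way in T210A. It gave 11.40, 11.53 and 11.51 in Alpha1, 10.98, 11.07 and 11.10 in T210A and 11.42, 11.58 and 11.50 in Snf1 at low glucose, so the T210A arrays lay below all others and the Alpha1 and Snf1 arrays overlapped. T210A was below Snf1 by 0.45 ± 0.06 (adjusted p = 1.85e-05), and Alpha1 against Snf1 gave -0.02 ± 0.06, adjusted p = 0.844. Of the 4 genes, 3 were thus higher and 1 lower in T210A against Snf1.

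**Figure D4:**
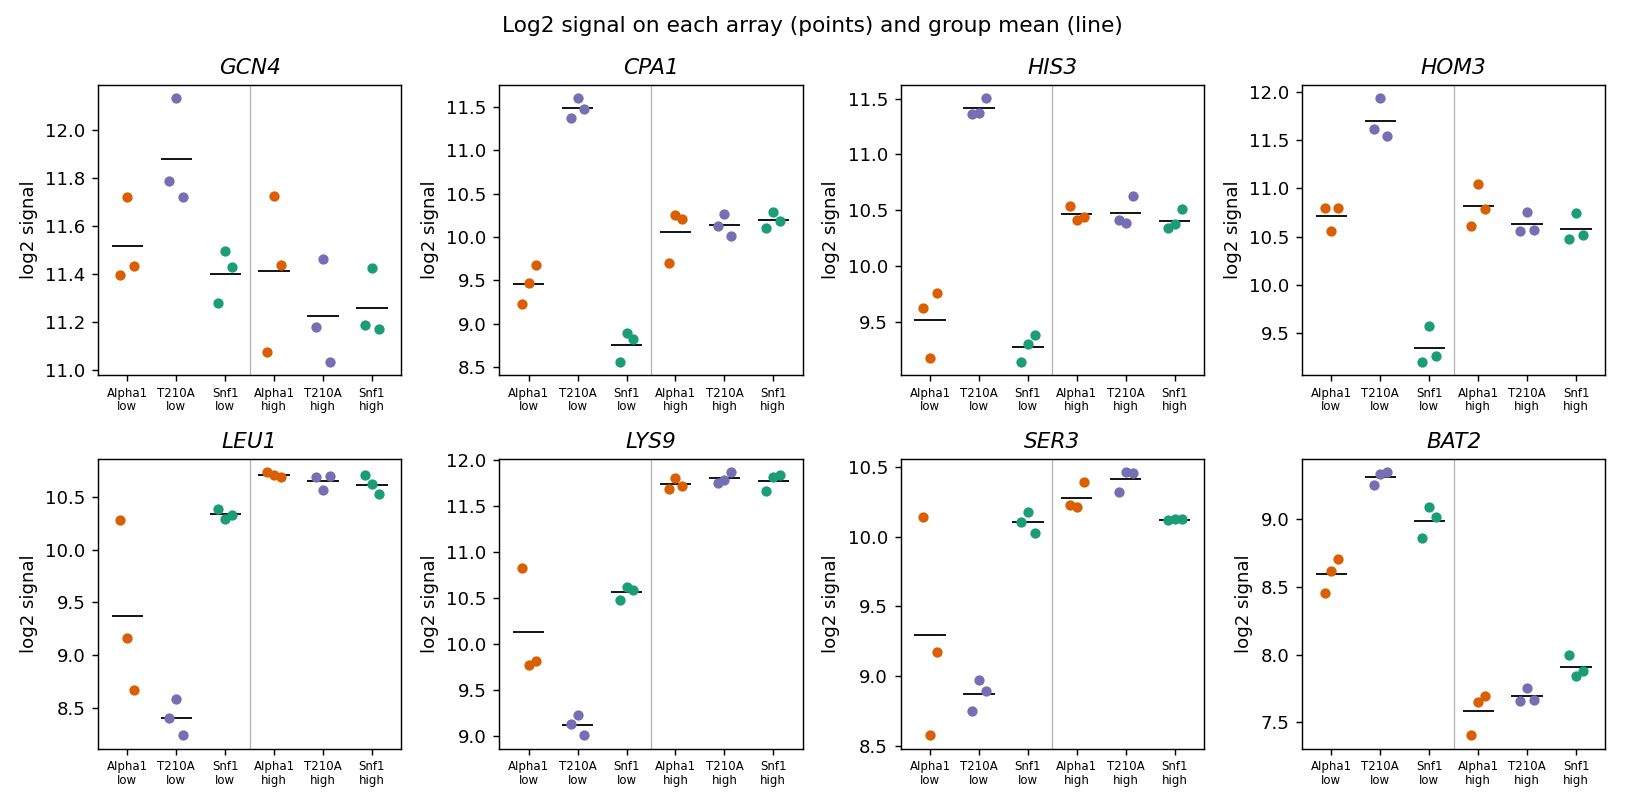
Log2 signal of 8 genes on each array (points) with the mean of each group (line), by strain and glucose level; each panel has its own axis. CPA1, HIS3 and HOM3 are highest in T210A at low glucose, LEU1, LYS9 and SER3 have their lowest group mean there, and the 3 Alpha1 arrays at low glucose spread widely for LEU1 (8.67 to 10.28) and SER3 (8.57 to 10.14).

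Branched-chain genes did not all go one way. In T210A against Snf1 at low glucose 8 of 9 were higher and 1, LEU1, was lower, and in Alpha1 against Snf1 2 were higher and 2 lower. LEU1 (YGL009C) encodes isopropylmalate isomerase, the second step specific to leucine. Its low-glucose signal was 10.28, 9.16 and 8.67 in Alpha1, 8.40, 8.58 and 8.24 in T210A and 10.39, 10.29 and 10.33 in Snf1. Its high-glucose signals lay between 10.53 and 10.74 in all strains. At low glucose the T210A arrays were below all Alpha1 arrays, which were below all Snf1 arrays, but Alpha1 replicate 1 lay close to the lowest Snf1 array. LEU1 was 3.82-fold lower in T210A than in Snf1 (-1.93 ± 0.27, adjusted p = 4.18e-05) and 1.96-fold lower in Alpha1 than in Snf1 (-0.97 ± 0.27, adjusted p = 0.016). The Alpha1 difference was -1.43, adjusted p = 4.08e-06 without replicate 1, -0.86, adjusted p = 0.06 without replicate 2 and -0.62, adjusted p = 0.0491 without replicate 3, so the call was lost without replicate 2. It was also lost when the fit held just these 2 groups (adjusted p = 0.222). With low glucose LEU1 fell by 4.75-fold in T210A and 2.54-fold in Alpha1, and in Snf1 it was not called (-0.28 ± 0.27, adjusted p = 0.387).

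LEU4 and LEU9 both encode alpha-isopropylmalate synthase, the entry to leucine synthesis, and their messages moved apart. LEU9 gave 7.04, 5.50 and 5.70 in Alpha1, 7.20, 7.23 and 7.28 in T210A and 5.78, 6.23 and 5.97 in Snf1 at low glucose and between 8.07 and 8.66 at high glucose. It fell by 5.61-fold in Alpha1, 1.96-fold in T210A and 5.1-fold in Snf1 with low glucose. Its T210A arrays at low glucose lay above all Alpha1 and Snf1 arrays, by 1.24 ± 0.28 over Snf1 (adjusted p = 0.00192), and Alpha1 replicate 1 stood well above the other Alpha1 arrays. LEU4 gave 10.67, 10.73 and 10.64 in Alpha1, 11.34, 11.51 and 11.49 in T210A and 10.64, 10.84 and 10.88 in Snf1 at low glucose, and its T210A arrays were again the highest. It rose by 1.10 ± 0.10 in T210A and 0.44 ± 0.10 in Snf1 with low glucose and was not called in Alpha1 (0.16 ± 0.10, adjusted p = 0.197). Pairs for the same reaction are LEU4 and LEU9, BAT1 and BAT2, LYS20 and LYS21, ARO3 and ARO4, SER3 and SER33, ASN1 and ASN2. Their probe sets may share signal, which was not tested, so the split between the genes of a pair is uncertain.

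The 5 ILV genes of isoleucine and valine synthesis were all higher in T210A than in Snf1. Threonine deaminase ILV1, the first step of isoleucine synthesis, gave 8.83, 8.65 and 8.28 in Alpha1, 9.23, 9.42 and 9.13 in T210A and 7.76, 7.95 and 7.82 in Snf1 at low glucose, with no overlap between strains. It was 2.67-fold higher in T210A than in Snf1 (adjusted p = 2.49e-06) and 1.67-fold higher in Alpha1 than in Snf1 (adjusted p = 0.00183). The 2 subunits of acetolactate synthase, ILV2 (catalytic) and ILV6 (regulatory), were higher in T210A by 0.77 ± 0.15 and 0.99 ± 0.09. ILV6 rose with low glucose in T210A (0.61 ± 0.09), and ILV2 was not called there (-0.05 ± 0.15). The reductoisomerase ILV5 and the dehydratase ILV3 fell with low glucose in every strain, by 1.03, 0.96 and 1.77 for ILV5 in Alpha1, T210A and Snf1. Even so, ILV5 was higher than in Snf1 by 0.81 ± 0.19 in T210A and by 0.57 ± 0.19 in Alpha1, and ILV3 by 0.77 ± 0.16 in T210A. The ILV5 call in Alpha1 was lost without Alpha1 replicate 1 (0.40, adjusted p = 0.126) and without replicate 2 (0.54, adjusted p = 0.0888).

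BAT2, the aminotransferase of the last step and of branched-chain amino acid breakdown, rose with low glucose in every strain, by 2.01-fold in Alpha1, 3.07-fold in T210A and 2.11-fold in Snf1. At low glucose it gave 8.46, 8.61 and 8.71 in Alpha1, 9.25, 9.33 and 9.34 in T210A and 8.86, 9.08 and 9.01 in Snf1, and the strains did not overlap. It was higher in T210A (0.33 ± 0.08, adjusted p = 0.00493) and lower in Alpha1 (-0.39 ± 0.08, adjusted p = 0.00328) than in Snf1. The Alpha1 call was lost when the fit held just these 2 groups (adjusted p = 0.0683). BAT1, the mitochondrial aminotransferase left out for its place on chromosome VIII, gave 11.16, 10.43 and 10.39 in Alpha1, 11.02, 11.11 and 10.90 in T210A and 10.62, 10.72 and 10.55 in Snf1 at low glucose. At high glucose BAT1 gave 11.14, 11.11 and 11.23 in Alpha1, 11.70, 11.70 and 11.71 in T210A and 11.14, 11.25 and 11.24 in Snf1. Its T210A arrays were above all others at high glucose and above the Snf1 arrays at low glucose. T210A against Snf1 was 0.49 ± 0.15, adjusted p = 0.109 at high glucose and 0.38 ± 0.15, adjusted p = 0.0459 at low glucose. Over the 261 genes of chromosome VIII the median difference between T210A and Snf1 was 0.74 at high glucose and 0.57 at low glucose, against -0.01 and 0.00 over all genes. BAT1 fell with low glucose in each strain, by 0.50 in Alpha1, 0.69 in T210A and 0.58 in Snf1.

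Lysine genes mostly fell with low glucose in every strain, and T210A differed from Snf1 in 4 of them. All 7 fell in Alpha1, 5 fell in T210A and 6 fell in Snf1. Against Snf1 at low glucose, 3 were higher and 1 lower in T210A, and 0 were called in Alpha1. LYS9 (YNR050C), the saccharopine reductase near the end of the pathway, gave 10.82, 9.78 and 9.81 in Alpha1, 9.13, 9.23 and 9.01 in T210A and 10.48, 10.61 and 10.59 in Snf1 at low glucose and between 11.66 and 11.87 at high glucose. T210A lay below all other low-glucose arrays, and Alpha1 replicate 1 lay above all Snf1 arrays while replicates 2 and 3 lay below them. LYS9 fell by 6.37-fold in T210A with low glucose, against 3.02-fold in Alpha1 and 2.31-fold in Snf1. It was 2.71-fold lower in T210A than in Snf1 (-1.44 ± 0.20, adjusted p = 3.4e-05) and 2.02-fold higher in Alpha1 than in T210A (1.01 ± 0.20, adjusted p = 0.00115). In Alpha1 against Snf1 it gave -0.42 ± 0.20, adjusted p = 0.127, and -0.77, adjusted p = 7.5e-06 without replicate 1. The Alpha1 difference from T210A was 0.67, adjusted p = 1.63e-05 without replicate 1, and its call was lost in a fit of those 2 groups alone (adjusted p = 0.0754).

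LYS20 and LYS21 encode the homocitrate synthases that open the lysine pathway. LYS20 gave 10.90, 10.21 and 10.37 in Alpha1, 11.68, 11.69 and 11.74 in T210A and 10.67, 10.81 and 10.60 in Snf1 at low glucose and between 11.83 and 12.06 at high glucose. It was not called in T210A (-0.20 ± 0.13, adjusted p = 0.186), and fell by 2.57-fold in Alpha1 and 2.4-fold in Snf1. T210A exceeded Snf1 by 1.01 ± 0.13 (adjusted p = 1.64e-05). LYS21 scattered between replicates, giving 10.62, 9.17 and 9.30 in Alpha1, 9.69, 10.02 and 9.52 in T210A and 9.85, 9.39 and 9.46 in Snf1 at low glucose, and Alpha1 replicate 1 stood well above the other Alpha1 arrays. LYS21 was called only in Alpha1, where it fell by 1.69-fold (adjusted p = 0.0389) with overlapping arrays. The difference of -0.75 was -1.21, adjusted p = 5.58e-05 without Alpha1 replicate 1, and the call was lost without replicate 2 (-0.49, adjusted p = 0.174) and without replicate 3 (-0.56, adjusted p = 0.156). Homoaconitase LYS4 and homoisocitrate dehydrogenase LYS12 fell in every strain, LYS12 by 2.97-fold in Alpha1, 3.4-fold in T210A and 3.02-fold in Snf1, and neither was called between strains at low glucose. LYS12 in T210A against Snf1 was -0.15 ± 0.17, adjusted p = 0.48. LYS4 in the same comparison was 0.36 ± 0.19, adjusted p = 0.126. The aminoadipate reductase LYS2 and the saccharopine dehydrogenase LYS1 also fell in all strains and were higher in T210A than in Snf1 by 0.61 ± 0.17 and 0.36 ± 0.14.

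Genes of the shikimate trunk were higher in T210A than in Snf1 in all 6 cases, and in Alpha1 in 2. ARO3 and ARO4 encode the DAHP synthases that start the trunk, inhibited by phenylalanine and by tyrosine. ARO3 gave 9.65, 8.87 and 9.60 in Alpha1, 10.67, 10.61 and 10.84 in T210A and 9.41, 9.55 and 9.65 in Snf1 at low glucose, and between 9.41 and 9.83 at high glucose. It rose by 1.07 ± 0.17 in T210A and was not called in Alpha1 (-0.30 ± 0.17, adjusted p = 0.138) or Snf1 (-0.17 ± 0.17, adjusted p = 0.391). ARO4 instead fell in Alpha1 (-0.56 ± 0.14, and -0.37, adjusted p = 0.00539 without replicate 2 at low glucose) and Snf1 (-0.99 ± 0.14) and was not called in T210A (0.20 ± 0.14, adjusted p = 0.204). Both were higher in T210A than in Snf1 at low glucose, by 1.17 ± 0.17 for ARO3 and 1.17 ± 0.14 for ARO4. Chorismate synthase ARO2, the last step of the trunk, gave 9.39, 9.27 and 9.49 in Alpha1, 10.04, 10.16 and 10.25 in T210A and 8.53, 8.82 and 8.68 in Snf1 at low glucose with no overlap between strains. It was 2.78-fold higher in T210A (1.47 ± 0.09, adjusted p = 1.19e-08) and 1.63-fold higher in Alpha1 (0.71 ± 0.09, adjusted p = 3.61e-05) than in Snf1. ARO7, the chorismate mutase of the phenylalanine and tyrosine branch, fell in every strain and was higher than in Snf1 in T210A (0.71 ± 0.09) and in Alpha1 (0.64 ± 0.09). Alpha1 and T210A overlapped for ARO7 (-0.06 ± 0.09, adjusted p = 0.62). ARO1, a single protein for several trunk steps, was higher in T210A by 0.62 ± 0.11, and the aromatic aminotransferase ARO8 by 1.20 ± 0.16.

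Tryptophan genes shared their calls between strains: all 4 were higher in T210A than in Snf1, all 4 higher in Alpha1 than in Snf1, and all 4 lower in Alpha1 than in T210A. TRP3 (YKL211C), which joins TRP2 in anthranilate synthase and also carries indole glycerol phosphate synthase, gave 8.20, 8.22 and 8.33 in Alpha1, 9.62, 9.92 and 9.66 in T210A and 7.45, 7.80 and 7.71 in Snf1 at low glucose. At high glucose it gave 8.40, 8.90 and 8.96 in Alpha1, 8.77, 8.94 and 8.72 in T210A and 8.68, 8.98 and 8.70 in Snf1. The low-glucose strains did not overlap, with T210A highest and Snf1 lowest. TRP3 was 4.23-fold higher in T210A than in Snf1 (2.08 ± 0.14, adjusted p = 5.89e-08) and 1.51-fold higher in Alpha1 than in Snf1 (0.60 ± 0.14, adjusted p = 0.00682). The other 3 were higher in T210A than in Snf1 by 1.25 ± 0.15 (TRP2), 1.27 ± 0.13 (TRP4, the anthranilate phosphoribosyltransferase) and 1.04 ± 0.11 (TRP5, tryptophan synthase). In Alpha1 against Snf1 they were higher by 0.47 ± 0.15, 0.42 ± 0.13 and 0.41 ± 0.11 in the same order. TRP4 in Alpha1 rested on overlapping arrays, 8.58, 7.96 and 8.53 in Alpha1 and 7.84, 8.00 and 7.96 in Snf1. Its call was lost without Alpha1 replicate 1 (0.31, adjusted p = 0.1) and without replicate 3 (0.34, adjusted p = 0.0904). The TRP2 call in Alpha1 was lost without replicate 1 (0.41, adjusted p = 0.0849) and without replicate 2 (0.48, adjusted p = 0.0659). All 4 rose with low glucose in T210A and fell in Snf1, TRP3 by 0.92 ± 0.14 in T210A and 1.13 ± 0.14 in Snf1.

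Serine genes had no common direction between strains. SER3 and SER33 encode the 3-phosphoglycerate dehydrogenases that lead from glycolysis into serine. SER3 (YER081W) gave 10.14, 8.57 and 9.17 in Alpha1, 8.75, 8.97 and 8.89 in T210A and 10.10, 10.18 and 10.03 in Snf1 at low glucose. At high glucose it gave 10.23, 10.21 and 10.39 in Alpha1, 10.32, 10.46 and 10.45 in T210A and 10.12, 10.12 and 10.12 in Snf1. SER3 was not called in Snf1 (-0.02 ± 0.26, adjusted p = 0.983), and it fell by 1.98-fold in Alpha1 and 2.91-fold in T210A. The Alpha1 difference of -0.98 was -1.40, adjusted p = 9.85e-07 without replicate 1 at low glucose and -0.62, adjusted p = 0.0131 without replicate 2. T210A was 2.35-fold lower than Snf1 (-1.23 ± 0.26, adjusted p = 0.00112). Alpha1 against Snf1 gave -0.81 ± 0.26, adjusted p = 0.0306, with replicate 1 of Alpha1 inside the Snf1 range. That difference was -1.23, adjusted p = 2.18e-05 without Alpha1 replicate 1, -0.45, adjusted p = 0.113 without replicate 2 and -0.75, adjusted p = 0.0722 without replicate 3. Leaving out any of the Snf1 low-glucose arrays also ended the call, with adjusted p between 0.0604 and 0.0817, and so did a fit of just these 2 groups (adjusted p = 0.281). SER33 fell in all strains, by 1.76-fold in Alpha1, 2.41-fold in T210A and 1.87-fold in Snf1, and no strain pair was called.

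SER2, the phosphoserine phosphatase of the last serine step, gave 8.26, 7.61 and 7.50 in Alpha1, 7.31, 7.28 and 7.46 in T210A and 6.58, 6.80 and 6.77 in Snf1 at low glucose and between 9.43 and 9.73 at high glucose. The strains did not overlap at low glucose. SER2 fell by 3.36-fold in Alpha1, 4.94-fold in T210A and 7.05-fold in Snf1, and the Snf1 fall was the largest of the 50 genes in that strain. At low glucose SER2 was higher than in Snf1 by 1.07 ± 0.15 in Alpha1 (adjusted p = 0.000109) and by 0.63 ± 0.15 in T210A (adjusted p = 0.00246). Alpha1 against T210A gave 0.44 ± 0.15, adjusted p = 0.0286, and 0.20 with adjusted p = 0.0645 without Alpha1 replicate 1. That call was also lost without T210A replicate 1 (adjusted p = 0.0787) and without T210A replicate 2 (adjusted p = 0.0828). SER1, the phosphoserine aminotransferase, fell in all strains and was not called in T210A against Snf1 (0.10 ± 0.20, adjusted p = 0.718) or in Alpha1 against Snf1 (-0.56 ± 0.20, adjusted p = 0.0507). Without Alpha1 replicate 1 the Alpha1 difference from Snf1 was -0.90, adjusted p = 2.4e-06.

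The asparagine synthetases ASN1 and ASN2 were unlike each other. ASN1 (YPR145W) gave 10.87, 10.46 and 10.85 in Alpha1, 11.81, 11.88 and 11.82 in T210A and 10.16, 10.25 and 10.25 in Snf1 at low glucose, with no overlap between strains. It was 3.07-fold higher in T210A than in Snf1 (1.62 ± 0.09, adjusted p = 6.58e-09) and 1.42-fold higher in Alpha1 than in Snf1 (0.51 ± 0.09, adjusted p = 0.000707). With low glucose it rose by 0.61 in T210A and fell by 0.61 in Alpha1 and 1.08 in Snf1. ASN2 gave 9.71, 9.20 and 9.06 in Alpha1, 9.23, 9.52 and 9.41 in T210A and 9.19, 9.36 and 9.11 in Snf1 at low glucose, where the strains overlapped. It fell in all strains, by 0.86, 0.74 and 0.88 in Alpha1, T210A and Snf1, and T210A against Snf1 was 0.16 ± 0.13, adjusted p = 0.317.

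In proline synthesis the first enzymes were higher in T210A and the last was lower. The glutamate kinase PRO1 gave 7.99, 8.27 and 7.99 in Alpha1, 8.33, 8.47 and 8.38 in T210A and 7.48, 7.59 and 7.54 in Snf1 at low glucose, with no overlap between strains. It was 1.82-fold higher in T210A (adjusted p = 1.49e-05) and 1.46-fold higher in Alpha1 (adjusted p = 0.00181) than in Snf1. The next enzyme, PRO2, was higher in T210A by 0.62 ± 0.13 and not called in Alpha1 (0.32 ± 0.13, adjusted p = 0.0723). PRO3, the pyrroline-5-carboxylate reductase that completes proline, gave 10.34, 10.37 and 10.51 in Alpha1, 9.90, 9.83 and 9.91 in T210A and 10.27, 10.43 and 10.40 in Snf1 at low glucose. Its T210A arrays lay below all others, and the Alpha1 and Snf1 arrays overlapped. PRO3 was 1.41-fold lower in T210A than in Snf1 (-0.49 ± 0.06, adjusted p = 2.18e-05) and 1.45-fold higher in Alpha1 than in T210A (0.53 ± 0.06, adjusted p = 2.42e-05).

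**Figure D5:**
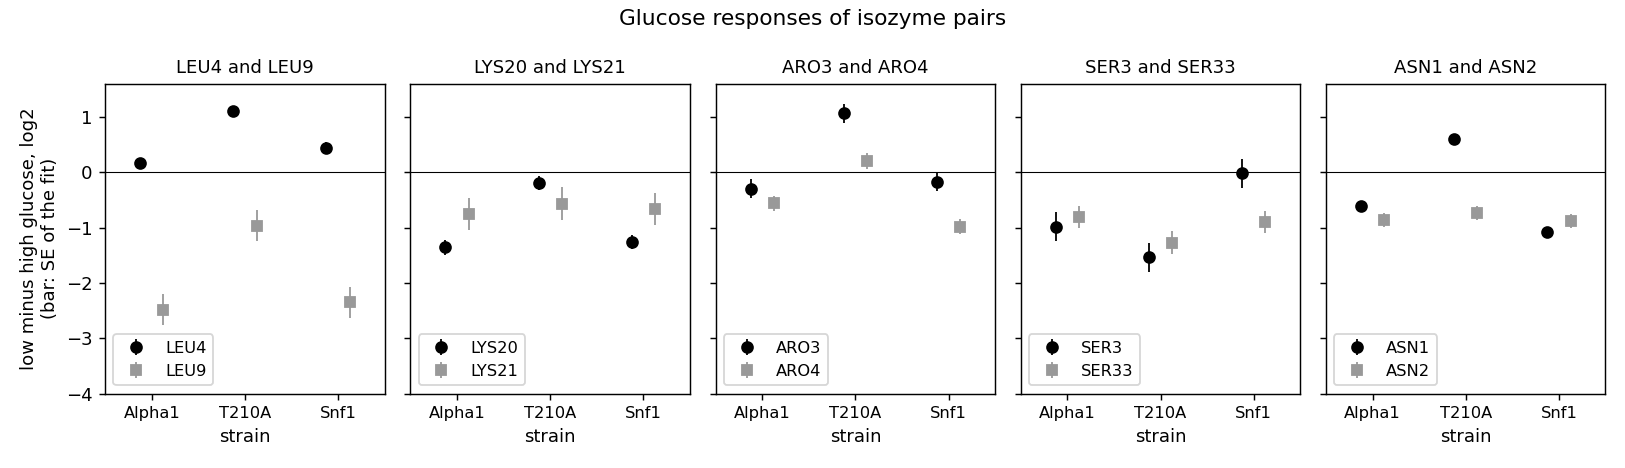
Difference between low and high glucose (log2, points) with the SE of the fit (bars) for both genes of 5 pairs that encode the same reaction, in Alpha1, T210A and Snf1. LEU4 lies above LEU9 in every strain, ASN1 and ARO3 rose in T210A where ASN2 fell and ARO4 was not called, and SER3 was not called in Snf1 where SER33 fell.

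Differences between the strains in their response to glucose were tested directly. The T210A response minus the Snf1 response was higher for 34 genes and lower for 5, against 21.2% higher and 18.3% lower of all genes. The 4 largest in each direction were CPA1 (2.77 ± 0.21), HOM3 (2.31 ± 0.20), HIS3 (2.07 ± 0.17) and TRP3 (2.06 ± 0.20), and LEU1 (-1.97 ± 0.39), SER3 (-1.52 ± 0.37), LYS9 (-1.46 ± 0.28) and HOM6 (-0.47 ± 0.08). By pathway, all members of arginine (4), isoleucine, valine and leucine (9), shikimate (6), tryptophan (4), proline (3) and homoserine and threonine (4) differed between T210A and Snf1. Of the histidine genes 4 of 6 did, of the lysine genes 3 of 7, of the asparagine genes 1 of 2 and of the serine genes 1 of 4. The Alpha1 response minus the Snf1 response was higher for 8 genes and lower for 0, against 9.32% higher and 4.37% lower of all genes. These were HOM3 (1.14 ± 0.20), SER2 (1.07 ± 0.21), CPA1 (0.83 ± 0.21), HIS1 (0.73 ± 0.18), ARO2 (0.73 ± 0.12), PRO1 (0.66 ± 0.15), ARO7 (0.64 ± 0.13) and ASN1 (0.47 ± 0.12). Without Alpha1 replicate 1 at low glucose 8 were higher and 7 lower, the 7 being LEU1, LEU9, LYS1, LYS9, LYS20, SER1 and SER3. In a fit of those 2 strains, 5 genes were called, and CPA1 (adjusted p = 0.0604) and HIS1 (adjusted p = 0.0776) were not. The Alpha1 response minus the T210A response was higher for 3 genes and lower for 28, against 10.9% higher and 9.41% lower of all genes. LYS9 (1.08 ± 0.28), HOM6 (0.55 ± 0.08) and PRO3 (0.52 ± 0.09) were the 3 higher ones, and CPA1 (-1.94 ± 0.21), HIS3 (-1.88 ± 0.17), ARG3 (-1.54 ± 0.27) and LEU9 (-1.52 ± 0.40) the lowest. The calls of LYS9 (adjusted p = 0.0603) and LEU9 (adjusted p = 0.0581) were lost in a fit of those 2 strains.

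Related genes outside the 50 were counted in T210A against Snf1 at low glucose, where 29.7% of all genes were higher and 26.5% lower. Of 13 other amino acid synthesis genes, 9 were higher and 3 lower, and 7 and 2 of the 10 not on chromosome VIII, whose genes had the shifted median given beside BAT1. The highest were the threonine aldolase GLY1 (2.40 ± 0.27), the mitochondrial ornithine carrier ORT1 (2.26 ± 0.14) and the argininosuccinate lyase ARG4 (2.03 ± 0.13, chromosome VIII). The lowest were the aromatic aminotransferase ARO9 (-2.58 ± 0.10, chromosome VIII, with a T210A mean of 3.26 close to the low line of 3.25), the serine hydroxymethyltransferase SHM2 (-2.08 ± 0.36) and LEU2 (-0.76 ± 0.10), which acts next after LEU1. LEU2 and LEU1 were thus lower in T210A than in Snf1, and LEU4, which opens the same branch, was higher. Of 17 genes linked to Gcn4, most through its translation or turnover, 9 were higher and 2 lower, and 8 and 2 of the 16 not on chromosome VIII. PCL5, the cyclin that marks Gcn4 for breakdown and is itself a known target of Gcn4, was higher by 2.06 ± 0.18 but lies on chromosome VIII. GIR2 (1.09 ± 0.11) was higher. The mediator cyclin gene SSN8 was called higher too, but its Snf1 mean at low glucose (3.07) lay under the line of 3.25 near the arrays' lowest signals, so no size is given. The kinase genes GCN2 (-0.40 ± 0.08) and PHO85 (-0.46 ± 0.08) were lower. Of 13 regulators of single pathways, 8 were higher and 2 lower, and 7 and 2 of the 12 not on chromosome VIII. The arginine regulator ARG80 (1.96 ± 0.22), the amino acid sensing factor STP2 (1.72 ± 0.14, chromosome VIII) and BAS1 (1.64 ± 0.07), an activator of histidine and purine genes, were the highest. The nitrogen factor GAT1 (-1.13 ± 0.14) and PHO2 (-0.42 ± 0.15), a partner of Bas1, were lower. Of 18 aminoacyl-tRNA synthetase genes, which charge tRNAs, 9 were higher and 1 lower. Without DED81, the asparaginyl-tRNA synthetase gene on chromosome VIII (1.55 ± 0.08), 8 of 17 were higher and 1 lower. With low glucose 18 of these fell in Alpha1, 15 in T210A and 18 in Snf1, against 29.2%, 32.8% and 32.7% of all genes, and 0 rose in any strain.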

How the data were processed

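The deposited values are log2 signals of 18 Affymetrix yeast arrays, made by the authors with RMA and the affy package, per the submitters' processing notes; versions are not given in the sources used here. The array medians ran from 6.77 to 7.03, so the columns do not share 1 distribution, and what scaling set them is not given. Precision depends on there being 3 arrays per group. Of 5716 probe sets, 5498 named 1 gene and 218 none in the platform annotation, and 12 symbols were updated from RefSeq names. Where 47 genes had more than 1 probe set, the brightest by its mean over all arrays stood for the gene, which left 5449 genes.

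One mean per group was fitted over all 18 arrays with limma 3.58.1 in R 4.3.3 (12 residual degrees of freedom), and 12 contrasts were tested with Benjamini-Hochberg adjustment over all 5449 genes. The test was tried on simulated data in 3 runs with 200 changed genes each. Of changes of 1 log2 unit it recovered 89% in Alpha1 against Snf1 at low glucose, and of changes of 0.5 it recovered 47.3%. The simulated arrays had the same SD for a gene in every group. In the real data the median SD over all genes was 0.221 in Alpha1 at low glucose and 0.104 to 0.125 elsewhere. The recovered shares may thus be too high for comparisons with that group. Tables and figures were made with Python 3.11.15, pandas 2.3.3, numpy 2.4.6 and matplotlib 3.10.9.

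The genes and gene lists were chosen with earlier results of these data known. The rule for named genes took GCN4, HIS3, BAT1, both genes of each isozyme pair, up to 4 called genes with the largest difference in each direction per contrast, and per pathway the genes with the largest and smallest range of group means. Up to 3 called genes per direction were taken from each other list. The other members named complete their pathways and were chosen after their values were seen. The replicate numbers were checked for pairing by correlating deviations from group means. All 3 same-numbered pairs exceeded 0.1 in 8 of 15 pairs of groups, and the labels do not tie the numbers to a shared batch. A fit with the number as a block was an alternative for every contrast. Alternatives were an intensity trend with a robust prior, the compared groups alone, the replicate block, quantile normalization, median centring, leaving out the dimmest 25% of genes, the mean of all probe sets of a gene, array weights, leaving out chromosome VIII, and leaving out each array. Promoter sequences were not used here.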

Additional observations from a re-analysis of the deposited data

Results flagged for a closer look

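The glucose response of 2 strains differed, by the interaction term of limma, for 8 genes in Alpha1 minus Snf1, 39 in T210A minus Snf1 and 31 in Alpha1 minus T210A. For Alpha1 minus Snf1 the largest differences of log2 responses were HOM3 (1.14), SER2 (1.07), CPA1 (0.83) and HIS1 (0.73). For T210A minus Snf1 they were CPA1 (2.77), HOM3 (2.31), HIS3 (2.07) and TRP3 (2.06) among those higher. The lower ones were LEU1 (-1.97), SER3 (-1.52), LYS9 (-1.46) and HOM6 (-0.47). For Alpha1 minus T210A, LYS9 (1.08), HOM6 (0.55) and PRO3 (0.52) were higher. CPA1 (-1.94), HIS3 (-1.88), ARG3 (-1.54) and LEU9 (-1.52) had the lowest values.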

How the results depend on the processing

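Of 324 recomputed counts of called genes, 316 stayed within 1.5 times the reported count, and 0 calls turned the other way. The exceptions at high glucose were array weights (1 in Alpha1 against Snf1, 1 in T210A against Snf1 and 3 in Alpha1 against T210A), the compared groups alone (1 in T210A against Snf1) and leaving out Alpha1 low-glucose replicate 1 (1 in Alpha1 against T210A). The compared groups alone gave 9 in Alpha1 against Snf1 at low glucose and 5 in the response of Alpha1 minus Snf1, which was 15 without Alpha1 low-glucose replicate 1. Leaving out each array in turn gave counts of 0 to 1 in Alpha1 against T210A at high glucose and 7 to 15 for the response of Alpha1 minus Snf1. It gave 14 to 23 in Alpha1 against Snf1 at low glucose, 40 to 45 in T210A against Snf1 and 35 to 40 in Alpha1 against T210A. The causes were not tested, beyond fewer arrays in those fits.

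Of 66 called single values, 12 changed side of the threshold in any alternative, in 24 of 1782 recomputations, and 0 reversed. The 66 came from GCN4, HIS3 and the called genes with the largest differences in each direction per contrast. Most were thus picked for size on the same arrays, so they do not measure how stable smaller calls are. Calls of ILV5, TRP2 and TRP4 in Alpha1 against Snf1 at low glucose were lost when single arrays were left out. So were those of PRO1, PRO2, ILV6 and LYS21 in Alpha1 at low against high glucose. These calls are not among the 66. Of 15 values not called, 16 of 405 recomputations changed sign, all near 0 and for GCN4 or HIS3. Leaving out 1 array at a time gave, at high glucose, -0.004 to 0.32 for GCN4 in Alpha1 against Snf1 and -0.154 to 0.059 for GCN4 in T210A against Snf1 (0.047 without Snf1 replicate 2). It gave -0.011 to 0.117 for HIS3 in T210A against Snf1. In Alpha1 against T210A, HIS3 was 0.013 with median centring and -0.056 to 0.067 without single arrays (0.016 and 0.002 without Alpha1 replicates 2 and 3). GCN4 in Alpha1 at low against high glucose ranged over -0.064 to 0.26 without single arrays. Its response in Alpha1 minus Snf1 was 0.005 with quantile normalization. Without single arrays it ranged over -0.205 to 0.119, with 0.024 and 0.005 without Alpha1 low-glucose replicates 1 and 3, 0.001 and 0.009 without Snf1 high-glucose replicates 1 and 3, and 0.011 without Snf1 low-glucose replicate 2.

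With the replicate number as a block, the counts were 20 in Alpha1 against Snf1, 42 in T210A against Snf1 and 41 in Alpha1 against T210A at low glucose. The block gave adjusted p = 0.00574 for the GCN4 response of T210A minus Snf1 and 0.0072 for Alpha1 minus T210A by limma. Neither was called in the reported fit. With array weights the response of T210A minus Snf1 was called too (adjusted p = 0.0247), and without Alpha1 high-glucose replicate 1 that of Alpha1 minus T210A (adjusted p = 0.0341). The replicate block moved no count by over 1.5 times. Precision is limited by 3 arrays per group and by the spread of Alpha1 at low glucose.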
